A study of Mus musculus with 32 samples.

Results

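The pericyte marker genes followed here, *Pdgfrb*, *Rgs5*, *Rgs4*, *Cspg4*, *Anpep*, *Higd1b*, *Ndufa4l2*, and *Atp13a5*, were measured in the brain arteries of 32 mice. They are 8 of the 55357 genes in the read count table and were chosen by name, as genes that cell surveys of brain vessels use to mark pericytes. Pericytes are the mural cells that wrap capillaries, whereas smooth muscle cells (SMCs) form the contractile coat of arteries and arterioles. Both kinds of mural cell depend on PDGF-B from the endothelium, which acts on the receptor encoded by *Pdgfrb*, and both carry NOTCH3, the receptor that is mutated in the small vessel disease CADASIL.

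Arteries were dissected from the brain in cold buffer, and 1 library of poly(A)-selected RNA was sequenced for each mouse, with 8 mice in each of 4 groups. The 3-month-old animals were *Notch3*-/- mice, which lack a working *Notch3* gene, and *Notch3*+/+ mice. TgNotch3R169C mice, which carry a transgene with rat *Notch3* bearing the Arg169Cys mutation on top of their normal mouse *Notch3*, and WT mice without the transgene were 12 months old. All animals were untreated and on a C57BL/6 background. The transgene lies on the X chromosome, and the line was studied in both sexes, which the labels do not list mouse by mouse. Total counts per library were 20289487 to 54481934. *Notch3* itself was measured at 83.6 ± 12.0 CPM (read counts scaled to the size of the library, mean ± SD, n = 8) in *Notch3*+/+ mice, 16.2 ± 1.82 in *Notch3*-/- mice, 73.2 ± 8.19 in WT mice, and 182 ± 34.5 in TgNotch3R169C mice. How much of the transgene's rat message maps to the mouse gene was not tested.

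The dissected tissue was not pure artery. A list of 6 choroid plexus genes led by *Ttr*, the transthyretin gene, summed to 8752 to 25516 CPM in 7 libraries (*Notch3*-/- replicate 8, WT replicates 2, 4, 5, and 6, and TgNotch3R169C replicates 5 and 8) and to at most 562 CPM in the other 25. All 8 *Notch3*+/+ libraries belonged to the latter. For the 8 pericyte marker genes, several results are therefore also given without the 7 choroid-rich libraries. Where a change or correlation has no such value beside it, its dependence on these libraries is not shown. Changes of all other genes, and the genes most like each member, are given with all libraries only. These are bulk samples, so fewer cells of a type and less RNA per cell cannot be told apart.

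All 8 pericyte marker genes were detected in every library. Divided by transcript length (kb of exon), *Rgs5*, *Pdgfrb*, and *Anpep* lay together at the top, *Atp13a5* and *Rgs4* lower, and *Ndufa4l2*, *Cspg4*, and *Higd1b* at the bottom. The means over 32 libraries were 56.2 ± 6.39 CPM per kb for *Rgs5*, 54.9 ± 5.50 for *Pdgfrb*, 51.6 ± 6.91 for *Anpep*, 31.3 ± 3.65 for *Atp13a5*, and 15.5 ± 3.84 for *Rgs4*. *Ndufa4l2* reached 6.11 ± 1.09, *Cspg4* 4.61 ± 1.06, and *Higd1b* 4.46 ± 0.703 CPM per kb. The top of this order was not resolved, because *Rgs5* exceeded *Pdgfrb* in only 16 of 32 libraries and *Pdgfrb* exceeded *Anpep* in 25. *Anpep* exceeded *Atp13a5* in all 32 libraries, and *Rgs4* exceeded *Ndufa4l2* in all 32 with ranges that did not overlap. At the bottom, *Cspg4* exceeded *Higd1b* in 16 libraries. *Higd1b* had the fewest reads of the 8 genes, 70 to 286 per library, so its values carry the largest counting error.

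**Figure D1:**
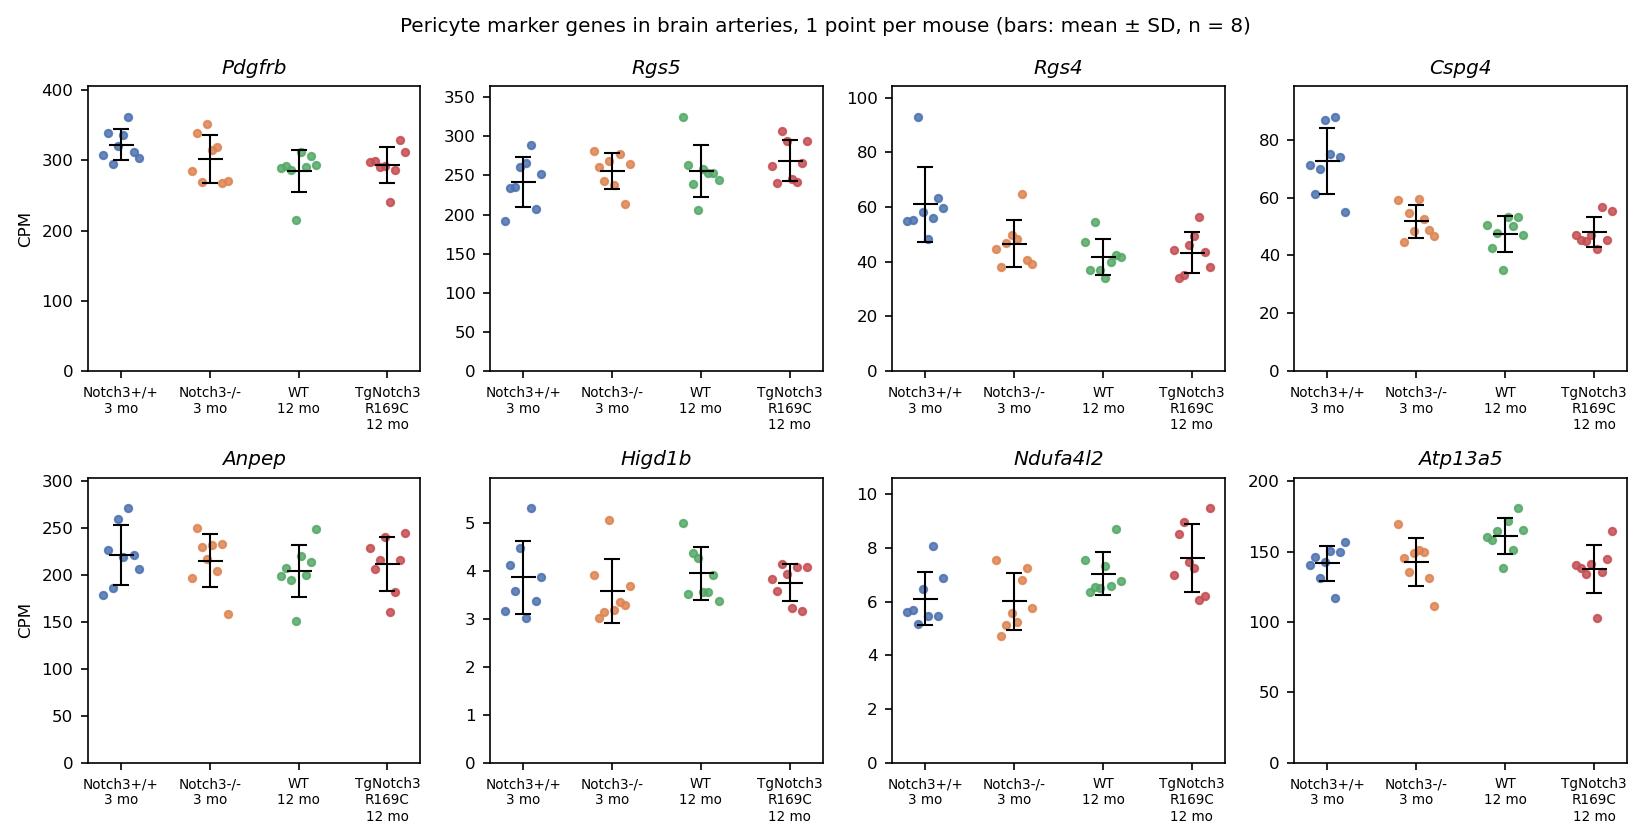
CPM of the 8 pericyte marker genes (vertical axes, each from 0) in the 4 groups of 8 mice. Points are mice, and bars give the mean ± SD. *Cspg4* stands at 72.6 CPM in *Notch3*+/+ mice and at 47.4 to 51.8 in the other 3 groups, and *Rgs4* at 61.0 against 41.7 to 46.5, whereas the means of *Rgs5* lie between 242 and 269 CPM in all 4 groups.

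The first comparison asked which pericyte marker genes differ when *Notch3* is absent. *Cspg4* fell in *Notch3*-/- mice, and no other member passed the test. Of the 17714 genes tested with edgeR's quasi-likelihood test, 0.649% had a Benjamini-Hochberg adjusted p below 0.05 in either direction and 0.452% were lower, against 1 of the 8 members. The median log2 fold change was −0.06 over the members and −0.0011 over all genes tested. At an unadjusted p below 0.05, 2 members differed, *Cspg4* and *Rgs4*. From here on, adjusted p values are from edgeR unless another tool is named, and changes are log2 fold changes.

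In TgNotch3R169C mice compared with WT mice, none of the 8 members passed the test (edgeR, 0.113% of 17731 genes called). Only *Atp13a5* had an unadjusted p below 0.05, and DESeq2 also called 0 members. The median change was 0.05 over the members and −0.0074 over all genes.

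A further comparison set the 2 control groups side by side, the older WT mice (12 months) against the younger *Notch3*+/+ mice (3 months). Here age, cohort, and mouse line cannot be told apart. Of the 8 members 2, *Cspg4* and *Rgs4*, were lower at 12 months and none was higher. Over all 17643 genes, 7.92% were called in either direction and 4.05% were lower. The median change was −0.04 over the members and 0.0026 over all genes. At an unadjusted p below 0.05, 4 members differed. This comparison and that of *Notch3*-/- mice share the 8 *Notch3*+/+ libraries, so a high value in that group enters both.

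**Figure D2:**
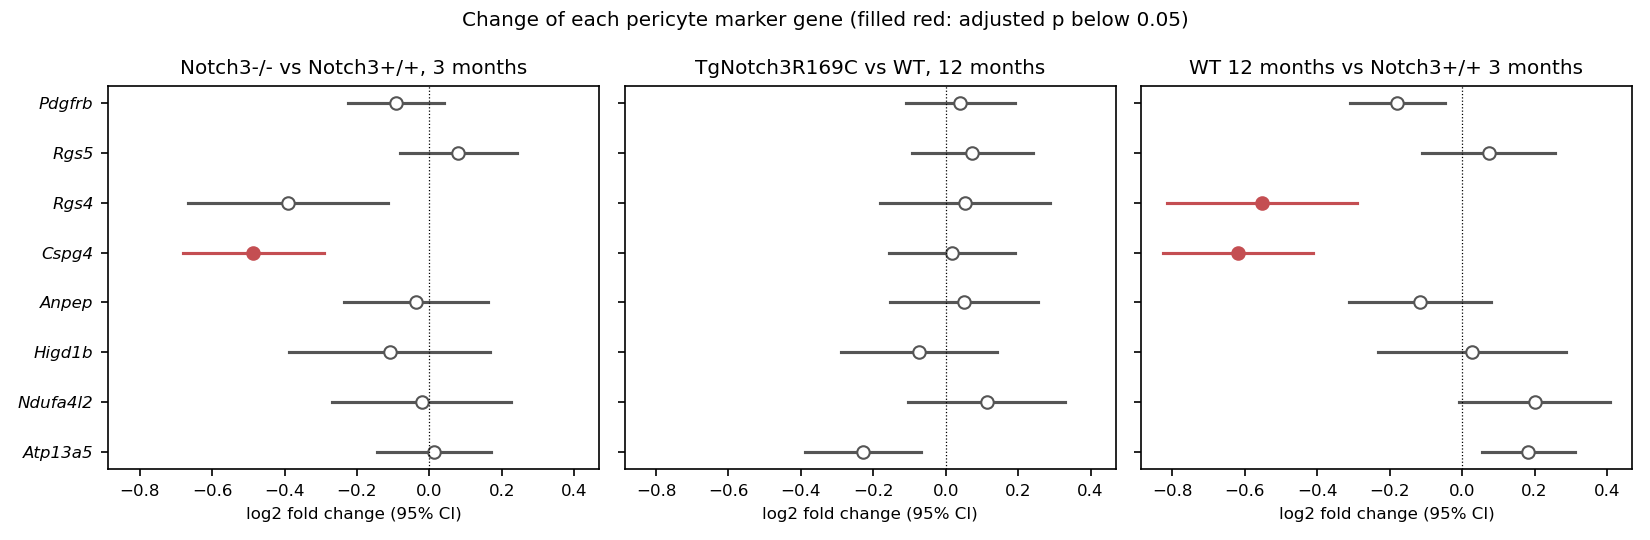
Log2 fold change (horizontal axis) with its 95% CI for each pericyte marker gene in the 3 comparisons, 8 against 8 mice. Filled points have an adjusted p below 0.05, which are *Cspg4* (−0.49) in *Notch3*-/- mice and *Cspg4* (−0.62) and *Rgs4* (−0.55) in 12-month-old WT mice against 3-month-old *Notch3*+/+ mice. No member is filled in the comparison of TgNotch3R169C with WT mice.

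*Pdgfrb* (ENSMUSG00000024620) encodes the receptor tyrosine kinase that recruits pericytes to growing vessels. It measured 295 to 362 CPM (median 316) in *Notch3*+/+ mice, 268 to 352 (median 299) in *Notch3*-/- mice, 215 to 311 (median 291) in WT mice, and 241 to 330 (median 294) in TgNotch3R169C mice. All 4 groups overlapped, and the WT minimum came from a single choroid-rich library, replicate 4. The change was −0.09 in *Notch3*-/- mice (95% CI −0.22 to 0.04, adjusted p = 0.843) and 0.04 in TgNotch3R169C mice (95% CI −0.11 to 0.19, adjusted p = 0.917). Between the control groups it was −0.18 (95% CI −0.31 to −0.05, adjusted p = 0.0831), with 8 of 8 WT mice below the *Notch3*+/+ mean, a difference that edgeR did not call and DESeq2 did (adjusted p = 0.0469).

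The ligands of this receptor family and its sister receptor *Pdgfra*, 5 genes in all, gave 0 calls in *Notch3*-/- mice and 0 in TgNotch3R169C mice by edgeR (0 and 0 at an unadjusted p below 0.05). *Pdgfb*, the endothelial ligand that retains pericytes, had means of 61.8 CPM in *Notch3*+/+, 68.0 in *Notch3*-/-, 64.2 in WT, and 63.9 in TgNotch3R169C mice. *Pdgfc* was higher at 12 months in the control comparison (9.91 to 13.6 CPM, change 0.46, SE 0.128, adjusted p = 0.0378).

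*Rgs5* and *Rgs4* encode members of the R4 family of regulators of G protein signaling, which speed GTP hydrolysis by G protein alpha subunits and so shorten the response of vessels to contractile signals. The pair are neighbors on mouse chromosome 1, 45.7 kb apart and on opposite strands in GRCm38. Their levels parted in these data, with *Rgs4* called between the control groups and *Rgs5* not called in any comparison. Of 5 members with a promoter in the RefSeq table, those of these neighbors are shown together with that of *Cspg4*, the other gene that changed. Each stretch lies directly before the first annotated base of the gene and reads 5′ to 3′ on its strand. *Rgs5* is chr1:169655251-169655500 (plus strand), *Rgs4* is chr1:169747643-169747892 (minus strand), and *Cspg4* is chr9:56864854-56865032 (plus strand), all on GRCm38.p6. Capitals mark the TATA box TATAAA.
Rgs5: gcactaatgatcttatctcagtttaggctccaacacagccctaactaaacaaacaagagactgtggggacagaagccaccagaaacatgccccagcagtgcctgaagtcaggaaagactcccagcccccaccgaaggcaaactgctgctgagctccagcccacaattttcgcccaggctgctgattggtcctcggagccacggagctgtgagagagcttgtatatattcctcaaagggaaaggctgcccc
Rgs4: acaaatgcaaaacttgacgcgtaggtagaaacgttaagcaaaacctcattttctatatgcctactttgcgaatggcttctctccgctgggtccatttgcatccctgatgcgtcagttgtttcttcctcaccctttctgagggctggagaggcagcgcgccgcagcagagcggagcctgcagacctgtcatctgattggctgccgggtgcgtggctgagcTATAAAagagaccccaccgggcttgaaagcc
Cspg4: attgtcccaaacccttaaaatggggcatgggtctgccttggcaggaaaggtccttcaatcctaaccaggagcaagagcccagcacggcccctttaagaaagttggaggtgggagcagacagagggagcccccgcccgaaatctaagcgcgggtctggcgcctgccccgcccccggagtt

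These windows were searched on both strands for the TATA box TATAAA, the core TGGGAA bound by RBPJ (the DNA-binding partner of NOTCH receptors), the hypoxia response core ACGTG, and the CArG box of serum response factor. No 2 of the motifs overlapped in the printed windows, since the single match was the TATA box of *Rgs4*, whose first base lies 31 bases before the gene's start. Over 32851 promoter windows of 250 bases, 12.4% held TATAAA, 21.6% TGGGAA, 16.6% ACGTG, and 1.47% a CArG box. The *Cspg4* window is shorter, at 179 bases. A match is a description of these letters and was not tested as a site.

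*Rgs5* (ENSMUSG00000026678) measured 192 to 289 CPM (median 244) in *Notch3*+/+ mice, 213 to 281 (median 262) in *Notch3*-/- mice, 206 to 325 (median 253) in WT mice, and 241 to 306 (median 264) in TgNotch3R169C mice. All 4 ranges overlapped broadly. The changes were 0.08 (95% CI −0.08 to 0.24) in *Notch3*-/- mice, 0.07 (95% CI −0.09 to 0.24) in TgNotch3R169C mice, and 0.07 (95% CI −0.11 to 0.26) between the control groups. With the mean of the smooth muscle list as a covariate the changes were 0.24 (adjusted p = 0.767), 0.19 (adjusted p = 0.313), and 0.35 (adjusted p = 0.382), none of them called. Over the 3 comparisons the intervals of the fits without a covariate reached from 0.927 to 1.19 of the control level.

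*Rgs4* (ENSMUSG00000038530) was highest in *Notch3*+/+ mice, at 48.2 to 93.0 CPM (median 57.1). It measured 37.9 to 64.8 CPM (median 45.8) in *Notch3*-/- mice, 33.9 to 54.4 (median 40.8) in WT mice, and 34.1 to 56.5 (median 43.9) in TgNotch3R169C mice. The groups overlapped, and 1 *Notch3*+/+ library, replicate 3, stood at 93.0 CPM with the next at 63.4. In *Notch3*-/- mice the change was −0.39 (SE 0.131, 95% CI −0.67 to −0.11, adjusted p = 0.337), with 7 of 8 mice below the control mean, and without *Notch3*+/+ replicate 3 it was −0.27. From *Notch3*+/+ to WT mice it fell by 0.55 on the log2 scale (SE 0.124, 95% CI −0.82 to −0.29, adjusted p = 0.0134), with 8 of 8 WT mice below the *Notch3*+/+ mean. Without *Notch3*+/+ replicate 3 this change was −0.44 (adjusted p = 0.00941). Without the choroid-rich libraries it was −0.39 and no longer called (adjusted p = 0.170).

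Neurons also express *Rgs4*. *Notch3*+/+ replicate 3 had the highest sum of the 8 neuron genes in its group, 1735 CPM, with the next at 568. Between the control groups the neuron list gave 0 calls of 8 (0 at an unadjusted p below 0.05), and its sum spanned 275 to 1735 CPM in *Notch3*+/+ mice and 240 to 1005 CPM in WT mice. *Snap25* and *Camk2a*, which encode synaptic proteins, averaged 102 and 183 CPM in *Notch3*+/+ mice and 127 and 128 CPM in WT mice. With the mean of the neuron list as a covariate, the change of *Rgs4* between the control groups was −0.62 (adjusted p = 0.000366).

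Of the 8 other R4 genes listed, 6 were expressed enough to be tested, and edgeR called 0 of them in each of the 3 comparisons. At an unadjusted p below 0.05 the R4 list held 0 genes in *Notch3*-/- mice, 0 in TgNotch3R169C mice, and 1 between the control groups, *Rgs8* (1.52, adjusted p = 0.145).

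*Cspg4* (ENSMUSG00000032911) encodes the proteoglycan NG2, found on pericytes, on SMCs, and on oligodendrocyte precursors. It measured 54.9 to 88.0 CPM (median 72.7) in *Notch3*+/+ mice and 44.5 to 59.5 CPM (median 50.6) in *Notch3*-/- mice. In WT mice it measured 35.1 to 53.3 CPM (median 48.9), and in TgNotch3R169C mice 42.3 to 56.6 CPM (median 46.2). The *Notch3*+/+ mice stood above the rest, overlapping slightly with *Notch3*-/- and TgNotch3R169C mice and not at all with WT mice.

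In *Notch3*-/- mice *Cspg4* fell by 0.49 on the log2 scale (SE 0.0919, 95% CI −0.68 to −0.29, adjusted p = 0.0159), to 0.714 of the control level, and 8 of 8 mice lay below the control mean. The call held without each single library in turn (adjusted p 0.00366 to 0.0424) and without the choroid-rich libraries (−0.46, adjusted p = 0.0343). In TgNotch3R169C mice the change was 0.02 (95% CI −0.16 to 0.19, adjusted p = 0.971). For WT against *Notch3*+/+ mice it was −0.62 (SE 0.0980, 95% CI −0.83 to −0.41, adjusted p = 0.00171), with 8 of 8 WT mice below the *Notch3*+/+ mean, and without the choroid-rich libraries −0.55 (adjusted p = 0.0282).

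The arterial smooth muscle list had called genes in the same comparisons as *Cspg4*. Of its 8 genes, 7 were called lower in *Notch3*-/- mice (median −0.63). In TgNotch3R169C mice 0 were called, though all 8 were lower (median −0.22, 4 at an unadjusted p below 0.05). There the change of *Cspg4* was 0.02. In WT against *Notch3*+/+ mice 8 were called lower (median −0.81). Over all genes, 0.649%, 0.113%, and 7.92% were called in either direction in these comparisons. *Acta2*, smooth muscle actin, averaged 864 CPM in *Notch3*+/+, 556 in *Notch3*-/-, 455 in WT, and 384 in TgNotch3R169C mice. *Tagln*, the actin-binding transgelin, averaged 708, 457, 396, and 356 CPM and *Myh11*, smooth muscle myosin, 674, 327, 355, and 290 CPM in the same order. The list summed to 2733 to 4827 CPM in *Notch3*+/+, 1840 to 2842 in *Notch3*-/-, 1529 to 2335 in WT, and 1280 to 1961 in TgNotch3R169C mice. With the mean of this list as a covariate the change of *Cspg4* was −0.07 in *Notch3*-/- mice (adjusted p = 0.936) and −0.0038 between the control groups (adjusted p = 0.991). In the control comparison that fit called 0 genes in all, and the summed list did not overlap between the groups, so the list and the group could hardly be separated there. In the knockout comparison the sums overlapped through 1 *Notch3*-/- library alone (2842 CPM, the next at 2468), so the separation was poor there too.

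The list of oligodendrocyte precursors, which also carry NG2, gave 0 calls of 6 in *Notch3*-/- mice (0 at an unadjusted p below 0.05), with a summed level of 336 to 402 CPM in *Notch3*+/+ and 298 to 386 CPM in *Notch3*-/- mice. Of the 6, *Sox10* was higher in WT than in *Notch3*+/+ mice (1.18, 7.92% of all genes called). The list includes *Pdgfra*, and how far its sum measures oligodendrocyte precursors was not tested.

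*Anpep* (ENSMUSG00000039062) encodes aminopeptidase N, a cell surface peptidase. It measured 179 to 272 CPM (median 220) in *Notch3*+/+, 158 to 250 (median 224) in *Notch3*-/-, 151 to 249 (median 204) in WT, and 160 to 245 (median 216) in TgNotch3R169C mice, and the 4 groups overlapped over most of their ranges. The changes were −0.04 (95% CI −0.23 to 0.16), 0.05 (95% CI −0.15 to 0.25), and −0.12 (95% CI −0.31 to 0.08) in *Notch3*-/- mice, in TgNotch3R169C mice, and between the control groups. *Enpep*, the related aminopeptidase A and also a mural cell gene, differed between the control groups, falling from 40.1 to 21.6 CPM (−0.90, adjusted p = 0.00112) with groups that did not overlap. *Enpep* averaged 40.004 CPM in *Notch3*-/- mice.

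*Higd1b* (ENSMUSG00000020928) and *Ndufa4l2* (ENSMUSG00000040280) encode small mitochondrial proteins, the latter a relative of the respiratory chain subunit NDUFA4 that hypoxia-inducible factor (HIF) induces. *Higd1b* measured 3.02 to 5.30 CPM (median 3.72) in *Notch3*+/+, 3.01 to 5.06 (median 3.32) in *Notch3*-/-, 3.37 to 4.99 (median 3.74) in WT, and 3.15 to 4.14 (median 3.87) in TgNotch3R169C mice. The 4 ranges overlapped, and that of TgNotch3R169C mice was the narrowest. Its change was −0.11 (95% CI −0.39 to 0.17) in *Notch3*-/- mice, −0.07 (95% CI −0.29 to 0.14) in TgNotch3R169C mice, and 0.03 (95% CI −0.23 to 0.29) between the control groups.

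*Ndufa4l2* measured 5.16 to 8.08 CPM (median 5.64) in *Notch3*+/+, 4.73 to 7.55 (median 5.66) in *Notch3*-/-, 6.35 to 8.70 (median 6.67) in WT, and 6.07 to 9.48 (median 7.36) in TgNotch3R169C mice. The 12-month groups lay higher, with overlap. The change between the control groups was 0.20 (95% CI −0.01 to 0.41, adjusted p = 0.225), with 8 of 8 WT mice above the *Notch3*+/+ mean. It was −0.02 in *Notch3*-/- mice (95% CI −0.27 to 0.23) and 0.11 in TgNotch3R169C mice (95% CI −0.10 to 0.33). An exon of *Ndufa4l2* overlaps *Shmt2* on the opposite strand in GRCm38, and whether the counting used strand is not given in the sources used here.

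*Higd1a*, the paralog of *Higd1b*, fell in *Notch3*-/- mice from 31.5 to 25.8 CPM (−0.28, SE 0.0525, adjusted p = 0.0130) with groups that did not overlap, and between the control groups from 31.5 to 25.9 CPM (−0.29, adjusted p = 0.0446). It was the only called gene of 11 relatives of the members in *Notch3*-/- mice (0.649% of all genes called), and TgNotch3R169C mice had 0 (1 at an unadjusted p below 0.05). Among 9 HIF target genes, 0 were called in *Notch3*-/- mice, 0 in TgNotch3R169C mice (2 and 3 at an unadjusted p below 0.05), and 1 between the control groups, *Bnip3* (0.22, adjusted p = 0.0473, 7.92% of all genes called).

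*Atp13a5* (ENSMUSG00000048939) encodes a P5-type ATPase that in the brain marks pericytes. It measured 117 to 157 CPM (median 144) in *Notch3*+/+, 111 to 169 (median 147) in *Notch3*-/-, 139 to 181 (median 163) in WT, and 103 to 165 (median 139) in TgNotch3R169C mice. WT mice stood highest, and all groups overlapped. The change was 0.01 in *Notch3*-/- mice (95% CI −0.15 to 0.17). In TgNotch3R169C mice it was −0.23 (SE 0.0754, 95% CI −0.39 to −0.07, adjusted p = 0.563), with 7 of 8 mice below the WT mean, which did not pass the test. With the mean of the capillary endothelial list as a covariate it was −0.25 and called (adjusted p = 0.0113). That list includes *Slco1c1*, a gene that choroid plexus shares. With the smooth muscle list as a covariate the change was −0.12 and not called (adjusted p = 0.545). Without the choroid-rich libraries it was −0.27 (adjusted p = 0.0902), and the adjusted p over all alternatives ranged from 0.0113 to 0.999. Between the controls the change was 0.18 (95% CI 0.05 to 0.31, adjusted p = 0.0724), not called with edgeR, called with DESeq2 (adjusted p = 0.0432), and called without WT replicate 4, the library richest in choroid plexus genes (0.21, adjusted p = 0.0342).

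The response of the members to the 2 mutations was then compared directly, as the change in TgNotch3R169C mice minus the change in *Notch3*-/- mice in a fit of all 4 groups (18555 genes, 0.350% called). None of the 8 members differed at an adjusted p below 0.05 with edgeR, and DESeq2 called 1, *Cspg4* (adjusted p = 0.0184). An unadjusted p below 0.05 was found for 3. *Cspg4* had a difference of 0.51 (SE 0.127, 95% CI 0.25 to 0.77, adjusted p = 0.0756), which was called when *Notch3*+/+ replicate 2, *Notch3*+/+ replicate 8, or *Notch3*-/- replicate 1 was left out (adjusted p 0.0467, 0.0239, and 0.0493) and not without the choroid-rich libraries (0.41, adjusted p = 0.312). *Rgs4* had a difference of 0.45 (95% CI 0.09 to 0.80, adjusted p = 0.432) and *Atp13a5* one of −0.24 (95% CI −0.46 to −0.02, adjusted p = 0.534). Among the smooth muscle genes *Myh11* passed this test (0.75, adjusted p = 0.0399).

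A further 14 genes used as pericyte markers were examined beside the members. Of the 14 genes 1 was higher and 0 lower in *Notch3*-/- mice (0.649% of all genes called), with a median change of 0.04. The gene was *Kcnj8*, the pore of the ATP-sensitive potassium channel of mural cells, at 5.10 to 7.14 CPM (median 6.30) in *Notch3*+/+ and 7.03 to 9.59 CPM (median 8.87) in *Notch3*-/- mice (0.46, SE 0.0799, adjusted p = 0.00848). Its partner *Abcc9*, the regulatory subunit of the same channel, averaged 15.5 and 20.02 CPM (0.37, adjusted p = 0.0831). *Kcnj8* and *Cspg4* thus lay in opposite directions in *Notch3*-/- mice.

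In TgNotch3R169C mice 0 of the 14 genes were called (edgeR, 3 at an unadjusted p below 0.05, 0.113% of all genes called), with a median of −0.04. The lowest was *Art3*, an ADP-ribosyltransferase family gene, at 12.5 CPM in WT and 8.22 CPM in TgNotch3R169C mice (−0.60, adjusted p = 0.679). In the control comparison 3 of 14 were higher and 2 lower (7.92% of all genes called in either direction). *Kcnj8* (0.43), *Abcc9* (0.48), and *Art3* (2.15-fold) were higher at 12 months, and *Mcam* (−0.68), an adhesion molecule that SMCs and endothelium also carry, and *Tbx18* (−0.42), a mural cell transcription factor, were lower. *Vtn*, vitronectin, the gene of highest level in the list, also per kb, averaged 2214 CPM in *Notch3*+/+, 2280 in *Notch3*-/-, 2087 in WT, and 2111 in TgNotch3R169C mice and was not called in any comparison.

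**Figure D3:**
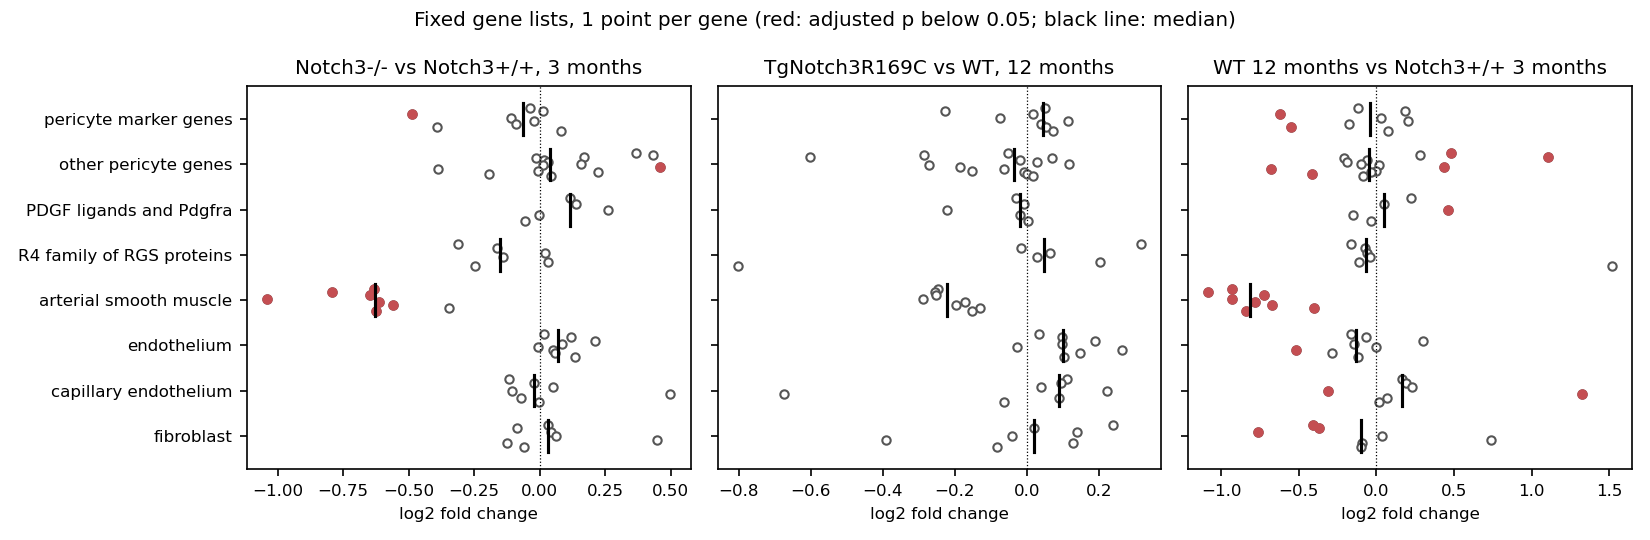
Log2 fold changes (horizontal axes, on a scale of their own in each panel) of the genes of 8 lists in the 3 comparisons, 1 point per gene, with the list's median as a black line and genes with an adjusted p below 0.05 in red. The smooth muscle list lies to the left of 0 in all panels (medians −0.63, −0.22, and −0.81), whereas the medians of the pericyte marker genes (−0.06, 0.05, and −0.04) and of the other pericyte genes (0.04, −0.04, and −0.05) lie near 0.

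The lists of endothelium, capillary endothelium, and fibroblasts had 0 calls in either mutant. Their counts between the control groups stand beside 7.92% of all genes called there. Of 8 endothelial genes 0 were called in *Notch3*-/- mice, 0 in TgNotch3R169C mice (0 and 1 at an unadjusted p below 0.05), and 1 between the control groups, *Pecam1* (−0.52), at 350 CPM in *Notch3*+/+ and 245 CPM in WT mice. *Flt1*, a VEGF receptor, averaged 425 to 433 CPM in the 4 groups. Of 7 capillary endothelial genes 0 were called in either mutant (0 and 1 unadjusted), and between the control groups *Slco1c1*, a thyroid hormone transporter that choroid plexus shares, was higher (1.33) and *Slc16a1* lower (−0.31). Of 7 fibroblast genes 0 were called in either mutant (0 and 1 unadjusted) and 3 collagen genes were lower between the control groups, with *Col3a1* the lowest (−0.76). The choroid plexus list had 5 of 6 genes higher between the control groups (median 4.29), the comparison in which the choroid-rich libraries were 4 of 8 against 0 of 8.

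Whether the members rise and fall together from mouse to mouse was examined across the 32 libraries, as the Pearson correlation of log2 CPM after the mean of each group was removed. Adjusted p values in these paragraphs are from 100000 permutations within groups, adjusted over 108 relations. For r over choroid-poor libraries, the group means removed were still those of all 32 libraries. Of the 28 pairs of members 2 passed by r, and the median r was 0.21. *Pdgfrb* rose with *Anpep* (r = 0.664, p = 0.00026, adjusted p = 0.00562, rho = 0.543, p = 0.00237, adjusted p = 0.0366) and with *Atp13a5* (r = 0.522, p = 0.00436, adjusted p = 0.0314, rho = 0.506, p = 0.00658, adjusted p = 0.0452). *Higd1b* with *Ndufa4l2* passed by rho (0.524, adjusted p = 0.0383) and not by r (0.436, adjusted p = 0.0751). Without the 2 libraries farthest from the median of *Anpep*, r with *Anpep* was 0.539. Without the 2 farthest from the median of *Atp13a5*, r with *Atp13a5* was 0.355. Within single groups r was 0.369 to 0.868 with *Anpep* and −0.431 to 0.898 with *Atp13a5*. Over the 25 libraries poor in choroid plexus genes it was 0.373 and 0.098. These relations were thus weaker without the choroid-rich libraries, that with *Atp13a5* most of all.

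With the mean of the 14 other pericyte genes, 6 of 8 members correlated at an adjusted p of r below 0.05, from r = 0.469 for *Ndufa4l2* to r = 0.574 for *Pdgfrb*. By rho 4 of these 6 passed, and *Anpep* (rho = 0.408, adjusted p = 0.115) and *Atp13a5* (rho = 0.457, adjusted p = 0.0777) did not. The 2 members that did not pass by either measure were *Rgs4* (r = −0.037, p = 0.844, adjusted p = 0.955, rho = −0.0407, adjusted p = 0.917) and *Cspg4* (r = 0.396, p = 0.0281, adjusted p = 0.0920, rho = 0.394, adjusted p = 0.134), the genes that differed between groups. Over the 25 choroid-poor libraries r was 0.668 for *Higd1b*, 0.604 for *Rgs5*, and 0.462 for *Ndufa4l2*, but 0.319 for *Pdgfrb*, 0.211 for *Anpep*, and 0.0309 for *Atp13a5*. Within single groups r was −0.118 to 0.809 for *Ndufa4l2* and −0.398 to 0.890 for *Atp13a5*. Its lowest value within a group was 0.440 for *Pdgfrb*, 0.408 for *Rgs5*, 0.415 for *Anpep*, and 0.311 for *Higd1b*.

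**Figure D4:**
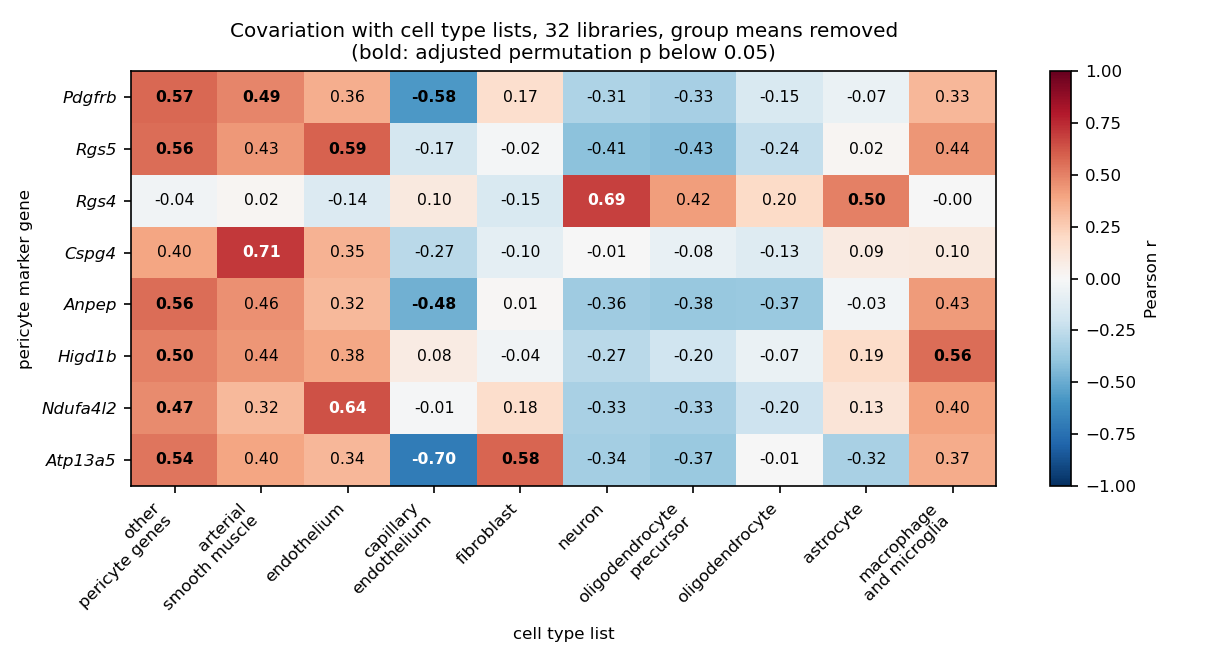
Pearson r, after group means were removed, between each pericyte marker gene (rows) and the mean of each of 10 cell type lists (columns) over 32 libraries, from blue (−1) to red (1). Bold values have an adjusted permutation p of r below 0.05. *Cspg4* is reddest in the column of arterial smooth muscle (0.71), *Rgs4* in that of neurons (0.69), and *Ndufa4l2* in that of endothelium (0.64).

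*Cspg4* followed arterial smooth muscle within groups. Its r with the smooth muscle list was 0.706 (p = 7e-05, adjusted p = 0.00562, rho = 0.645, p = 0.00036, adjusted p = 0.0366), 0.668 without the 2 libraries farthest from the median, 0.348 to 0.889 within single groups, and 0.693 over the choroid-poor libraries. Of 18509 genes, the second highest r with *Cspg4* was that of *Myh11* (0.770), followed by *Jph2* (0.767), which joins membranes in muscle. The highest was *Lrrc10b* (0.809).

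*Rgs4* followed neurons. Its r with the neuron list was 0.685 (p = 0.00013, adjusted p = 0.00562, rho = 0.568, p = 0.00145, adjusted p = 0.0366), 0.550 without the 2 farthest libraries, and 0.669 over the choroid-poor libraries. With astrocytes it was 0.502 (p = 0.00698, adjusted p = 0.0443, rho = 0.482, p = 0.00588, adjusted p = 0.0452), and 0.460 over the choroid-poor libraries. The genes whose pattern was most like that of *Rgs4* were *Sgtb* (0.823), *Enc1* (0.807), and *Camkk1* (0.806). *Rgs5*, by contrast, had r = −0.41 with neurons, which did not pass by r (adjusted p = 0.106) and passed by rho (−0.540, adjusted p = 0.0366). With endothelium its r was 0.586 (p = 0.00078, adjusted p = 0.0120, rho = 0.513, p = 0.00462, adjusted p = 0.0416), 0.512 without the 2 farthest libraries and 0.530 over the choroid-poor ones. The genes most like *Rgs5* were *Slc16a10* (0.721), *Dcp1a* (0.669), and *Col13a1* (0.640).

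*Ndufa4l2* followed endothelium, with r = 0.635 (p = 0.00025, adjusted p = 0.00562, rho = 0.562, p = 0.00147, adjusted p = 0.0366), 0.681 without the 2 farthest libraries, and 0.747 over the choroid-poor libraries. The endothelial receptor gene *Tie1*, itself in the list, was among its 3 most similar genes (0.774), after *Pltp* (0.793) and *Epha8* (0.783). *Higd1b* had r = 0.559 with macrophages and microglia (p = 0.00238, adjusted p = 0.0204, rho = 0.545, p = 0.00325, adjusted p = 0.0383), 0.597 without the 2 farthest libraries and 0.614 over the choroid-poor ones. The genes most like it were *Fhl5* (0.665), a gene of SMCs, *Lef1* (0.629), and *Foxq1* (0.629).

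*Atp13a5* ran against the capillary endothelial list and with the fibroblast list. The capillary list includes *Slco1c1*, which choroid plexus shares. After group means were removed, this list was highest in TgNotch3R169C replicate 5 (0.58), a choroid-rich library. In TgNotch3R169C replicate 8, also choroid-rich, it was −0.15. How far the list measures choroid plexus was not tested. With capillary endothelium r was −0.703 (p = 0.00018, adjusted p = 0.00562, rho = −0.524, p = 0.00342, adjusted p = 0.0383), −0.528 without the 2 farthest libraries, and −0.323 over the choroid-poor libraries. With fibroblasts it was 0.585 (p = 0.0007, adjusted p = 0.0120, rho = 0.496, p = 0.0067, adjusted p = 0.0452), 0.505 without the 2 farthest and 0.477 over the choroid-poor libraries. Its closest genes were *Dkk3* (0.830), *Serpind1* (0.821), and *Sdk1* (0.812).

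*Pdgfrb* and *Anpep* had negative r with capillary endothelium, −0.577 (p = 0.00178, adjusted p = 0.0175, rho = −0.424, p = 0.0189, adjusted p = 0.102) and −0.484 (p = 0.00841, adjusted p = 0.0478, rho = −0.381, p = 0.0389, adjusted p = 0.148). Over the choroid-poor libraries these were −0.195 and 0.0460, so both relations were weaker without the choroid-rich libraries. Within single groups r was −0.891 to −0.16 for *Pdgfrb* and −0.742 to 0.287 for *Anpep*. *Pdgfrb* also had r = 0.487 with smooth muscle (p = 0.00524, adjusted p = 0.0354, rho = 0.376, p = 0.0442, adjusted p = 0.152), 0.479 without the 2 farthest and 0.211 over the choroid-poor libraries. By rho none of these 3 relations passed. The genes most like *Pdgfrb* were *Fmod* (0.896), a matrix proteoglycan gene, *Cpxm1* (0.867), and *Scarf2* (0.865), and those most like *Anpep* were *Cped1* (0.896), *Capn1* (0.883), and *Ccdc8* (0.866).

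**Figure D5:**
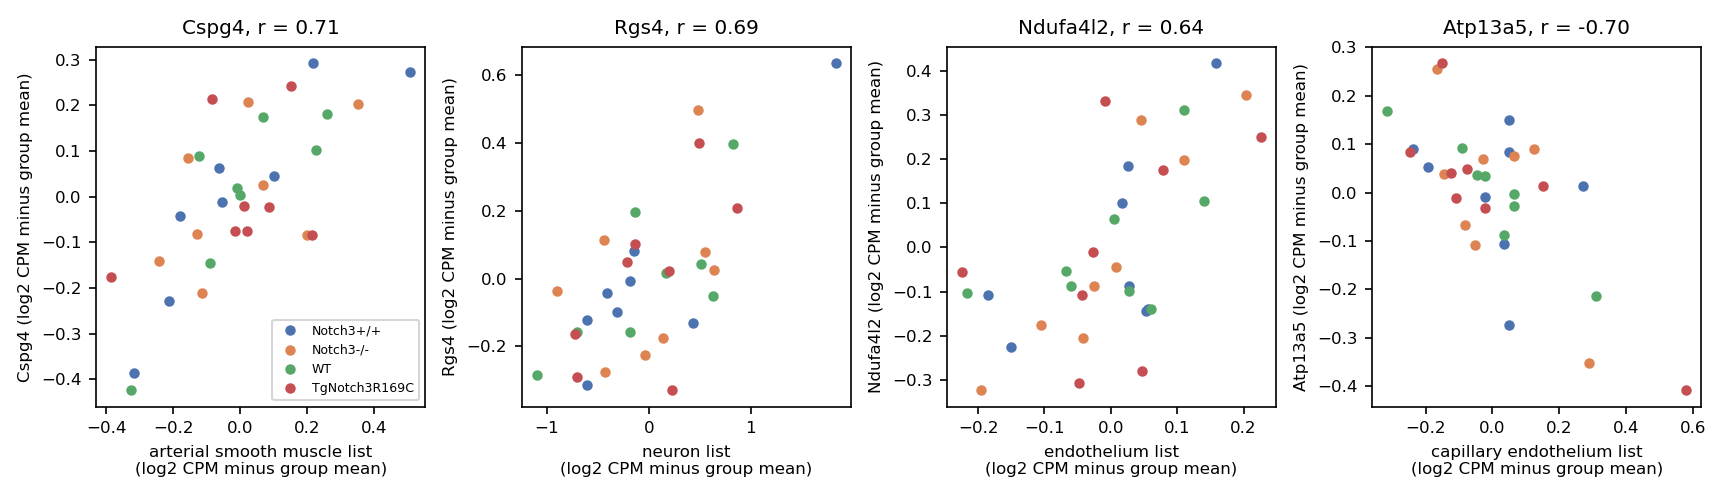
Log2 CPM minus the group mean of 4 pericyte marker genes (vertical axes) against the mean of the cell type list each followed most (horizontal axes), 1 point per library, 32 libraries colored by group. Removing the group means puts all groups on a common center, so their mixing is not a result. Trends rise for *Cspg4* with smooth muscle (r = 0.71), *Rgs4* with neurons (0.69), and *Ndufa4l2* with endothelium (0.64). The falling trend of *Atp13a5* with capillary endothelium (−0.70) leans on a few libraries at the right.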

How the data were processed

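Brain arteries of 32 mice (8 per group) were profiled by stranded, poly(A)-selected RNA sequencing. The authors deposited raw counts of reads per Ensembl gene, not normalized. The submitters' processing notes name bcl2fastq 2.20.0.422, cutadapt 1.10, Bowtie2 2.2.8, STAR 2.5.3a, HTSeq 0.6.1p1, and the build mm39; the annotation release is not given in the sources used here. Of 55357 genes, 16744 had no counts and 52081 matched a symbol. Groups were taken from the labels, and all 32 columns matched a library. Labels do not say that replicates of a group came from separate litters, so p values measure the spread between these mice.

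Tests used edgeR 4.0.16 under R 4.3.3 (filterByExpr, TMM, glmQLFit, glmQLFTest, Benjamini-Hochberg over all genes tested, threshold 0.05) in fits of the 2 groups compared, or of all 4 for the difference between the mutants. The SE and 95% CI come from the same test. CPM values are scaled by TMM over all 32 libraries, correlations use log2 CPM with a prior count of 2, and lengths are exon unions of GENCODE M21 (GRCm38), another build than the counts'. Promoters are from RefSeq on GRCm38.p6. The fits were also run on simulated counts drawn independently for each gene, unlike libraries with choroid plexus mixed in. The outcome is not reported here. No libraries of a group were duplicates (chi-square per gene 10.9 to 148).

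Genes named are the 8 members, *Notch3*, called or extreme genes of the lists, genes of highest level in the smooth muscle, endothelial, and neuron lists, and the 3 genes most correlated with each member. *Pdgfb* and *Vtn*, beyond this rule, were named after their values were seen. The members and lists were chosen with earlier results of these data known. Alternatives were upper-quartile or RLE scaling, a fit without the filter, DESeq2 1.42.0, limma voom 3.58.1, all 4 groups in a single fit, the replicate number as a block, covariates from 5 cell type lists, and leaving out each library. The fibroblast covariate and leaving out choroid-rich libraries (list sum above 1000 CPM) were chosen after seeing the data.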

Additional observations from a re-analysis of the deposited data

Results flagged for a closer look

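Within the 32 sets of 8 mice (8 members in 4 groups), 4 held a library whose gap to its neighbor exceeded Dixon's 95% critical value as a share of the set's range, where chance gives about 1.6. *Pdgfrb* in WT replicate 4 was 215 CPM with the next mouse at 286 (gap 0.736 of the range). That library had the highest choroid plexus sum of its group, 25516 CPM, and its part in the low value was not tested. *Rgs4* in *Notch3*+/+ replicate 3 was 93.0 CPM with the next at 63.4 (0.661), and the same library had the highest neuron sum of its group, 1735 CPM. *Rgs4* in *Notch3*-/- replicate 6 was 64.8 CPM with the next at 49.7 (0.563). The neuron sum of this library, 747 CPM, was close to the highest of the group, 753 in replicate 3. In replicate 3, however, *Rgs4* was 46.8 CPM. *Higd1b* in *Notch3*-/- replicate 4 was 5.06 CPM with the next at 3.90 (0.565), and that library had the highest sums of the group for macrophages and microglia (1037 CPM) and for the other pericyte genes (4472 CPM). The part of these cell types in the values was not tested.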

How the results depend on the processing

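The call of *Cspg4* in *Notch3*-/- mice was kept under every alternative run except the smooth muscle covariate, which left 0 members called. In TgNotch3R169C mice the capillary endothelial covariate gave 1 call. Between the control groups DESeq2 gave 4 calls, the smooth muscle covariate 0, and the choroid plexus covariate and the choroid-rich libraries left out 1 each, and the capillary endothelial and fibroblast covariates added *Atp13a5*. For the difference between the mutants DESeq2 gave 1 call. Leaving out single libraries gave 1 call in *Notch3*-/- mice, 0 in TgNotch3R169C mice, 2 to 3 between the control groups, and 0 to 1 for the difference. The paper took age-matched WT littermates as controls. Same-numbered mice correlated at −0.138 to 0.338, −0.247 to 0.424, and −0.187 to 0.238 in the 3 comparisons. Of 8, 3, 1, and 2 correlated best with their own number. These correlations cannot settle whether the replicate numbers pair the mice. With the replicate block 1, 0, 2, and 0 members were called, and calls over all genes went from 115 to 97, 20 to 6, 1398 to 715, and 65 to 63. The remaining scalings, the unfiltered fit, limma voom, and the fit of all 4 groups changed no call among the members. By DESeq2, calls over all genes were 278, 79, 2266, and 155.

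Several uncalled log2 fold changes near 0 turned sign, and the cause was not tested. In *Notch3*-/- mice these were, with the smooth muscle covariate, *Pdgfrb* 0.0322, *Anpep* 0.192, *Higd1b* 0.249, and *Ndufa4l2* 0.225, with the fibroblast covariate *Atp13a5* −0.0231, and without choroid-rich libraries *Anpep* 0.0224. In TgNotch3R169C mice they were *Higd1b* 0.000382 (smooth muscle covariate), *Rgs4* −0.0752 (neuron), *Pdgfrb* −0.00378, *Cspg4* −0.00741, and *Anpep* −0.00262 (choroid plexus), and without choroid-rich libraries *Rgs4* −0.108, *Cspg4* −0.0559, and *Ndufa4l2* −0.00270. Between the control groups they were *Pdgfrb* 0.0385 and *Anpep* 0.318 (smooth muscle) and *Higd1b* −0.0773 (capillary). For the difference they were *Pdgfrb* −0.00275, *Anpep* −0.108, *Higd1b* −0.172, and *Ndufa4l2* −0.00640 (smooth muscle), *Rgs5* 0.0285 (neuron), and *Anpep* −0.0177 and *Higd1b* −0.0305 without choroid-rich libraries. Leaving out single libraries gave −0.0666 to 0.0224 for *Anpep*, −0.0649 to 0.0508 for *Ndufa4l2*, and −0.0216 to 0.0628 for *Atp13a5* in *Notch3*-/- mice. In TgNotch3R169C mice it gave −0.00872 to 0.0825 for *Pdgfrb*, −0.00551 to 0.119 for *Rgs4*, −0.0346 to 0.0489 for *Cspg4*, and −0.00177 to 0.105 for *Anpep*. It gave −0.0334 to 0.107 for *Higd1b* between the control groups, and −0.0445 to 0.0502 for *Rgs5* and −0.0409 to 0.122 for *Higd1b* for the difference. At 70 to 286 reads per library, *Higd1b* is the member whose changes depth limits most.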
